A study of Mus musculus with 8 samples.

Results

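Dll4, Dll1, Jag1, Il7, Kitl, Flt3l, Il15 and Tslp encode signals through which the thymic stroma instructs developing T cells. These 8 genes were taken by name, whatever their level, from the 55487 genes counted in CITE-seq libraries of mouse thymic stroma, in which droplets capture a cell's mRNA along with oligonucleotide tags on antibodies bound to its surface. The first group was stroma of 1-week-old C57BL/6 mice and the second was stroma of 16-week-old C57BL/6 mice. No transgene, deletion or treatment is given in the labels for either age. Cells of several thymi of an age were depleted of CD45+ cells, stained with 27 tagged reagents, sorted for a mixture rich in EpCAM1+ cells and loaded on 2 wells. The 2 libraries of an age (replicates 1 and 2) were therefore wells of 1 pool and not separate animals, so no test between the ages was possible and the proportions of cell types reflect the sort. The labels call the samples thymic epithelial cells, but the tables also held fibroblasts, mural cells, endothelium, mesothelium and some thymocytes.

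The libraries held 1430 to 4738 cells each with a median of 6669 to 8691 UMIs (unique molecular identifiers, each standing for 1 captured mRNA) per cell. All 8 genes were detected, from 1906 UMIs for Tslp to 14248 for Il7 over 9953 cells. Levels are CPM, the UMIs of a gene per 1000000 UMIs of the cells in question, with exact 95% Poisson intervals that cover counting error alone. Because UMIs were counted at the 3′ end, the spliced forms of a gene, such as membrane-bound and soluble Kitl, could not be told apart. Levels were compared between cell types for 1 gene at a time.

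Delta-like and Jagged proteins are membrane ligands of the Notch receptors. Dll4 on cortical thymic epithelial cells (cTEC) is the ligand that commits incoming progenitors to the T lineage, whereas Dll1 and Jag1 serve Notch signalling in other settings, among them arteries and their mural cells. Il7 and Kitl (stem cell factor) sustain early thymocytes through the receptors IL-7R and KIT, Flt3l acts on progenitors and dendritic cells, Il15 on natural killer and unconventional T cells, and Tslp signals through a receptor that shares the IL-7R chain.

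In mm10 (GRCm38) coordinates, Dll4 (ENSMUSG00000027314) lies at chr2:119325784-119335962 on the plus strand and Kitl (ENSMUSG00000019966) at chr10:100015630-100100416 on the plus strand. Il7 (ENSMUSG00000040329) lies at chr3:7569994-7613760, Jag1 (ENSMUSG00000027276) at chr2:137081456-137116644, Dll1 (ENSMUSG00000014773) at chr17:15367354-15376872, Flt3l (ENSMUSG00000110206) at chr7:45129788-45136432 and Il15 (ENSMUSG00000031712) at chr8:82331632-82403222, all on the minus strand. The eighth gene is Tslp (ENSMUSG00000024379). Flt3l overlaps the gene model Gm45713 on the same strand, so reads in the shared stretch could not be assigned with certainty.

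The promoter windows of Dll4 and Kitl are shown because these genes shared a class of cells with high levels (cTEC and endothelium, below) and because the Dll4 window lies whole inside Gm14207 (chr2:119321187-119326194, minus strand), an antisense gene model whose level followed that of Dll4. Each window runs from 250 bases before to 50 bases after a RefSeq transcript start in GRCm38.p6, at chr2:119325534-119325833 for Dll4 and chr10:100015571-100015870 for Kitl, both on the plus strand. Capitals mark matches on either strand to 3 motifs, the GC box (GGGCGG), the FOXN1 core (GACGC) and the RBPJ site (GTGGGAA). FOXN1 is the master regulator of thymic epithelium and RBPJ is the DNA-binding partner of Notch.
Dll4 promoter: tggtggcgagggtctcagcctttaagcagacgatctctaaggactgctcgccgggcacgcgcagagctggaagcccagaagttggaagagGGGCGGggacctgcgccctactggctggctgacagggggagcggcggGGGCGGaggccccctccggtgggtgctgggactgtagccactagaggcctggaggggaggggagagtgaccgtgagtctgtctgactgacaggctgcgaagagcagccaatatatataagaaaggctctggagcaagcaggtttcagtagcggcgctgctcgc
Kitl promoter: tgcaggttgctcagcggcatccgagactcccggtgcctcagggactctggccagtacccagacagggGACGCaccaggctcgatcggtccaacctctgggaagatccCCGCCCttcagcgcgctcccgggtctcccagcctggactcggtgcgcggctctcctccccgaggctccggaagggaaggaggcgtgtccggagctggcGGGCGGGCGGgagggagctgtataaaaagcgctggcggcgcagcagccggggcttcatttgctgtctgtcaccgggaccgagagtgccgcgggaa
The Dll4 window held 2 GC boxes and the Kitl window 3, of which a pair overlap. The FOXN1 core occurred 1 time in the Kitl window and the RBPJ letters in neither. Of 32851 promoter windows of the same length, 35.7% held a GC box, 27.2% a FOXN1 core and 6.38% the RBPJ letters, so each match was common. The windows were rich in G and C, at 63.7% for Dll4 and 68.7% for Kitl, against a median of 52.7% over all windows.

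Cells were grouped on their RNA with the 8 genes left out, and each group was named from marker lists. The cTEC class held 1304 cells at 1 week and 50 at 16 weeks. It was made of cluster T5, which held 9 of 9 cTEC markers (Psmb11, Prss16, Ly75, Ctsl, Ccl25, Cxcl12, Enpep, Foxn1 and Tbata), and of cluster T3, which held 7 of 9 and was led by Hbb-bs and interferon-inducible genes such as Iigp1. Hbb-bs in 1-week cTEC was 148 CPM in replicate 1 and 10.8 in replicate 2, so its lead rested mainly on 1 library. Of the 16-week cTEC, 47 cells were in T5 and 3 in T3, whereas 946 of the 1-week cTEC were in T3. Adult TEC of cluster T9 (187 cells at 16 weeks) also held 9 of 9 cTEC markers but were led by Aqp4, Scn1a and Igfbp5, and adult TEC of cluster T4 (764 cells) by Scn1a, Gas1 and Fmod, so both are called by number. The intertypical TEC class (Ccl21a, Krt5, Krt14, Ly6a) was almost wholly cluster T10 at 1 week (162 of 163 cells) and clusters T1 and T7 at 16 weeks (1229 and 334 of 1564 cells), and mature medullary TEC (mTEC; Aire, Fezf2, Cd80) were cluster T2 at both ages. Cluster T13 came almost wholly from 1 library (99 of 106 cells from 1-week replicate 1) and is left out of the named classes.

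RNA of a cTEC gene was counted outside cTEC in the 1-week libraries and has to be read beside low levels there. Free cTEC RNA as its source was not tested. Psmb11, a proteasome subunit made by cTEC alone among stromal cells, was counted at 1 week in 62.1% to 83.6% of the cells of mesenchymal and endothelial classes, at 4.37% to 14.4% of its level in T5. At 16 weeks it was counted in at most 10.3% of the cells of such classes, at 0.714% of its T5 level or less except in mural cells of replicate 2, at 5.40%. The thymocyte class was not used as a type lacking the factors, as it held Psmb11 at 33.6% to 55.6% of the T5 level. Libraries of the 2 ages shared few cell barcodes (35 cells carried 1 of 15 barcodes seen in more than 1 library, of which 10 cells shared theirs with the other age).

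Dll4 was a product of cTEC and of endothelium. At 1 week cTEC held 113 and 127 CPM (replicates 1 and 2), and at 16 weeks 89.5 and 99.4. Arterial endothelial cells held 216 and 162 at 1 week and 77.7 and 142 at 16 weeks, in 22 and 38 cells. Capillary endothelial cells held 82.9 and 87.6 at 1 week and 86.8 and 84.6 at 16 weeks, and adult venous endothelial cells 67.1 and 68.0. The counting intervals of cTEC (81.3 to 115), arterial (75.2 to 159) and capillary cells (67.5 to 106) overlapped at 16 weeks, so their order there was not resolved, whereas at 1 week arterial cells (148 to 252) lay above cTEC (115 to 123) and cTEC above capillary cells (66.2 to 109). The arterial value at 1 week rested on 22 cells, and cTEC were the highest class there with 20 neighbours in the clustering, with TMM factors and without either 1-week library, which left under 20 arterial cells.

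Within the adult epithelium the Dll4 level dropped steeply outside the cTEC class. Cluster T9 held 24.2 and 38.8 CPM, mature mTEC 16.2 and 28.9, and cluster T4 2.58 and 5.34, which is at most 5.37% of the T5 level, against 2.75% for Psmb11 in the same cells. Intertypical TEC held 4.25 and 4.25 at 16 weeks and 24.6 and 25.3 at 1 week. At 1 week that was 19.2% and 16.5% of the T5 level, beside 11.3% and 8.40% for Psmb11, and the part of free RNA in it was not tested. A Dll4 UMI was found in 68.3% of cTEC at 1 week and 78% at 16 weeks, and after thinning each cell to 2000 UMIs in 21.4% and 20.2%. The thinned share was 0.835% in adult medullary-type fibroblasts, which should lack the gene, and 4.71% in 1-week capsular-type fibroblasts.

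**Figure D1:**
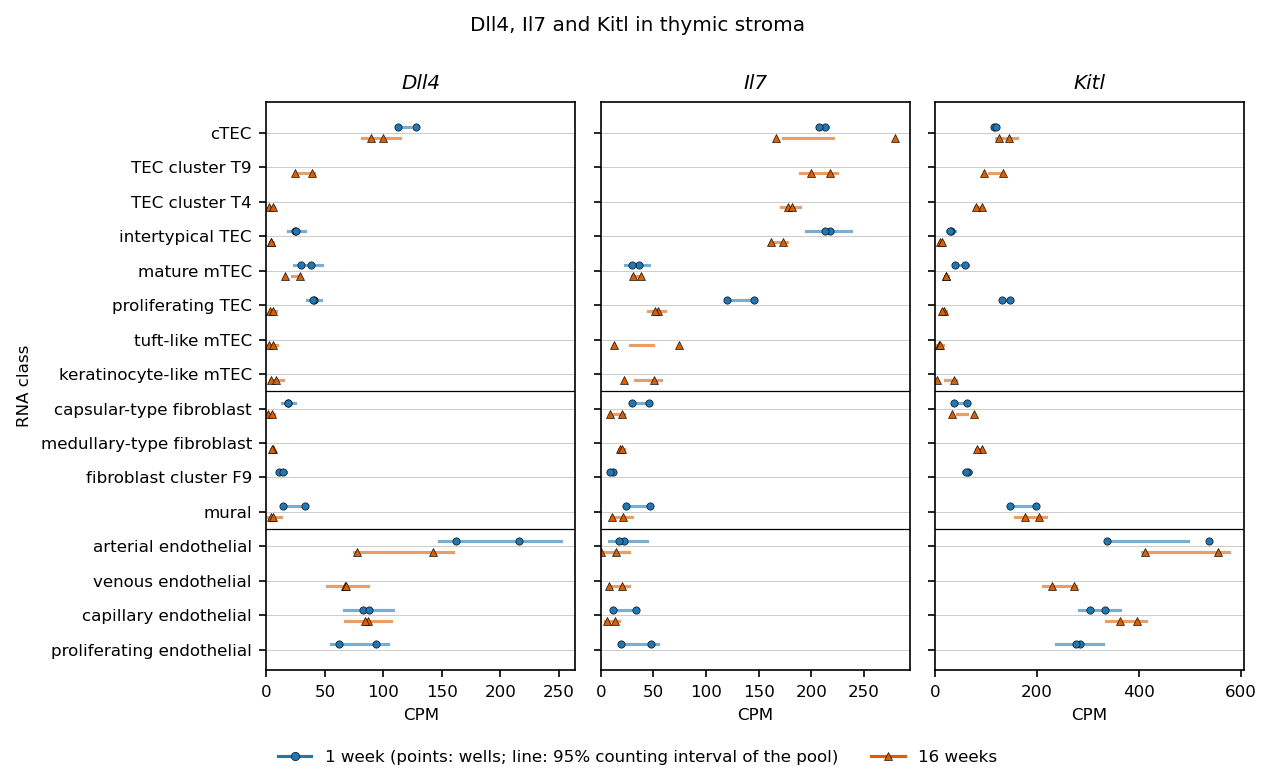
Levels of Dll4, Il7 and Kitl in CPM (x axes) by RNA class (y axis), for classes with at least 20 cells at an age. Points are wells with at least 5 cells, lines the 95% counting interval of the pool of each age, blue circles 1 week and orange triangles 16 weeks. Dll4 was high in cTEC and endothelium, Il7 in cTEC, T9, T4 and intertypical TEC, and Kitl was highest in endothelium.

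Il7 was an epithelial product that cTEC shared with other TEC. cTEC held 213 and 208 CPM at 1 week and 279 and 166 at 16 weeks, where replicate 1 had 14 cells. Intertypical TEC held 217 and 213 at 1 week and 162 and 173 at 16 weeks, adult T9 218 and 200 and adult T4 177 and 181. These epithelial populations were close in Il7, and the pool interval of cTEC at 16 weeks (173 to 220) overlapped those of T9 (190 to 225), T4 (171 to 189) and intertypical TEC (162 to 177).

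The intertypical class was not uniform, as adult cluster T7, led by Ccl11 and Ccl21a, held 218 CPM of Il7 (interval 206 to 230) and cluster T1 122 (114 to 132). Low Il7 was seen in mature mTEC, with 36.3 and 29.8 at 1 week and 38.1 and 30.9 at 16 weeks. Capillary endothelial cells held 33.2 and 11.8 at 1 week, or 13.9% and 4.72% of the T5 level beside 9.18% and 4.57% for Psmb11, and 13.9 and 6.27 at 16 weeks. Adult medullary-type fibroblasts held 18.6 and 19.98. The thinned share of cells with an Il7 UMI was 28.4% and 30.8% in cTEC (71.6% and 88.0% unthinned) at 1 and 16 weeks, and 2.13% in adult capillary cells (6.61% unthinned).

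Kitl was highest in endothelium and lower, but clearly present, in mural cells, cTEC and fibroblasts. Arterial endothelial cells held 338 and 538 CPM at 1 week and 412 and 555 at 16 weeks, capillary cells 304 and 334, then 396 and 363, and adult venous cells 272 and 230. Mural cells, which wrap the vessels, held 199 and 148 at 1 week and 205 and 176 at 16 weeks. In the epithelium, cTEC held 116 and 120 at 1 week and 125 and 144 at 16 weeks, adult T9 96.7 and 134 and adult T4 92.0 and 80.1. Adult medullary-type fibroblasts held 92.6 and 82.5. Adult intertypical TEC were at 9.82 and 14.7, with cluster T7 at 8.77 in the pool, so that Il7-rich TEC divided into T9 and T4 with Kitl and T7 with little. The thinned share of cells with a Kitl UMI was 47.9% in adult capillary cells, 23.4% in adult cTEC and 3.10% in adult intertypical TEC (79.3%, 88.0% and 8.12% unthinned).

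UMIs of all 3 genes were found together in most T5 cells. At 1 week 184 of 214 cells (86.0%) of replicate 1 and 113 of 144 (78.5%) of replicate 2 held UMIs of Dll4, Il7 and Kitl, and at 16 weeks 9 of 11 and 25 of 36. T5 cells were deep, and the median cell had 43354 and 43130 UMIs in 1-week and 29897 and 30149 in 16-week libraries. In T3, with a median of 7054 and 7072, the share was 33.8% and 32.6%, and in adult T9, with 13750 and 7202, it was 16.7% and 14.96%. In adult T4, with 9466 and 8632, it was 2.23% and 2.22%, with Dll4 in 7 of 224 and 24 of 540 cells. In the deeper cluster T7 all 3 were seen in 0 of 98 cells and in 1 of 236. At 1 week, when Psmb11 UMIs were also found outside the epithelium, the fibroblast clusters F9 (median of 29413 and 28501 UMIs) and F10 (21007 and 21511) held UMIs of all 3 in 1 of 67 and 4 of 67 and in 2 of 65 and 5 of 50 cells. These clusters were less deep than T5, and no thinning to one depth was done.

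Of the Notch ligands other than Dll4, Jag1 marked arteries, mural cells and adult intertypical TEC. Arterial endothelial cells held 404 and 640 CPM at 1 week and 187 and 278 at 16 weeks. Mural cells held 162 and 198, then 268 and 146. Intertypical TEC held 60.5 and 65.7 at 1 week and 111 and 111 at 16 weeks, and adult T4 99.0 and 79.6. In cTEC it was low, with 9.29 and 11.8 at 1 week and 21.7 and 20.1 at 16 weeks, so that at both ages Jag1 was lower and Dll4 higher in cTEC than in intertypical TEC.

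Dll1 was highest in adult venous endothelium and, among TEC, in adult T4. Adult venous cells held 82.0 and 78.8 CPM, above adult capillary cells with 20.8 and 37.6 and arterial cells with 23.3 and 35.6. Adult T4 cells held 42.7 and 47.0, above adult cTEC with 27.1 and 16.2 and intertypical TEC with 18.6 and 20.7. Mature mTEC held 5.31 and 6.74 and mural cells had 8 UMIs at 1 week and 5 at 16 weeks.

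Flt3l and Tslp were highest in adult mesenchymal cells. Adult medullary-type fibroblasts (1332 cells; Penk, Apod, Igfbp5) held 157 and 163 CPM of Flt3l and 69.1 and 67.9 CPM of Tslp. Adult cluster F3, shallow mesenchymal cells (275 cells, median 3227 UMIs) that met no name, held more Flt3l, 284 and 282. The 1-week fibroblast cluster F9 (134 cells; H19, Sele and Mest) held 35.5 and 41.1 CPM of Tslp but 24.9 and 15.9 of Flt3l. In adult cTEC there were 2 UMIs of Tslp, and adult venous endothelial cells held 11.2 and 30.9 CPM.

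Il15 was spread over many cell types. Its highest named class was mature mTEC, with 57.2 and 41.7 CPM at 1 week and 67.1 and 50.3 at 16 weeks. With the 8 genes clustered on, doublets kept or shallow clusters kept, the highest class was instead intertypical TEC at 1 week and proliferating TEC at 16 weeks. Adult medullary-type fibroblasts held 38.6 and 41, 1-week F9 fibroblasts 40.3 and 31.8 and adult proliferating TEC 47.3 and 40.5. The counting intervals of mature mTEC (51.2 to 60.6) and medullary-type fibroblasts (37.3 to 43.4) did not overlap at 16 weeks.

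**Figure D2:**
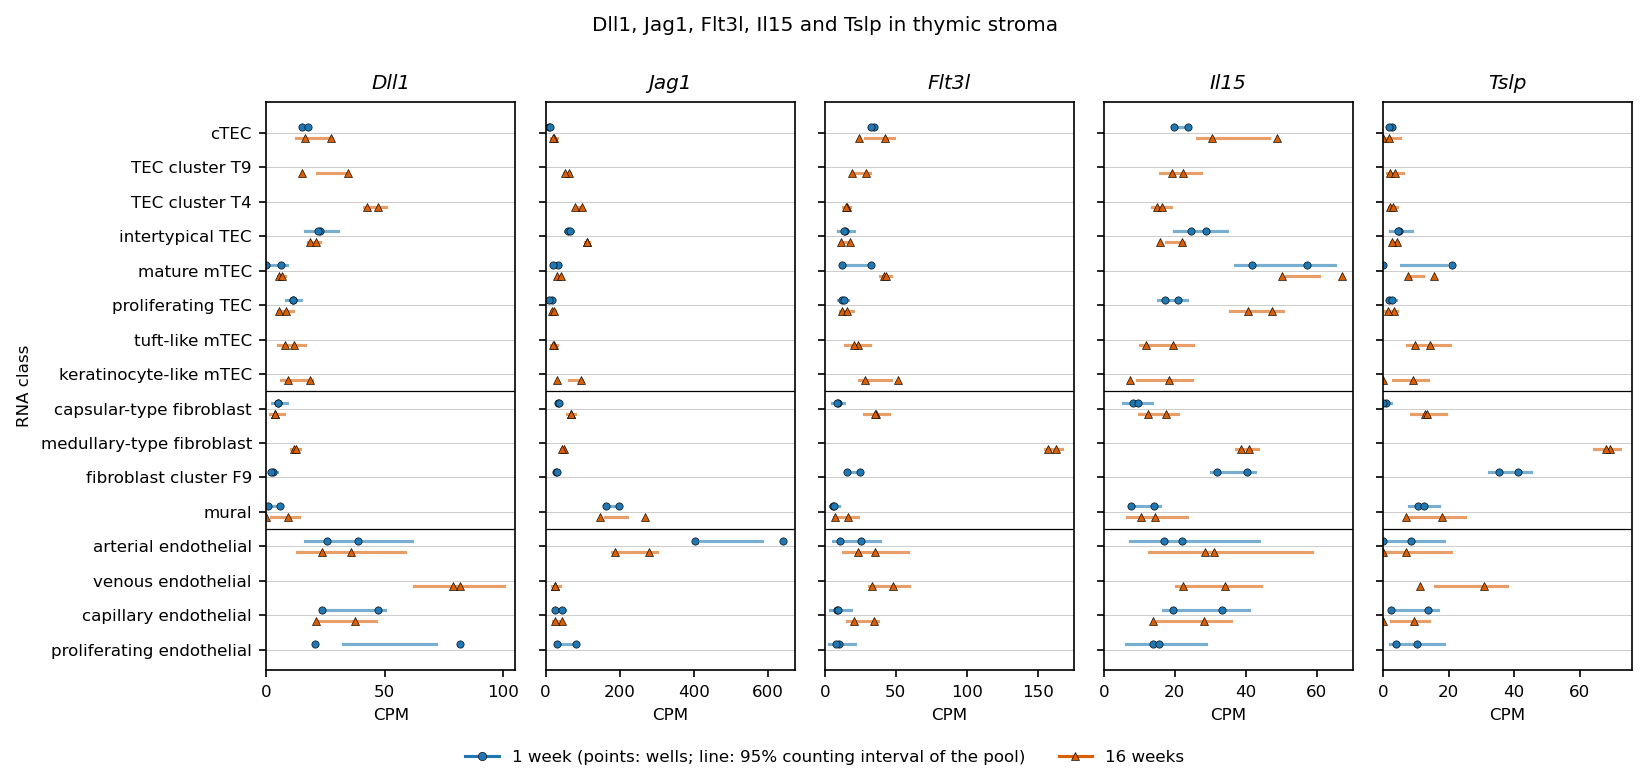
Levels of Dll1, Jag1, Flt3l, Il15 and Tslp in CPM (x axes) by RNA class (y axis), drawn like those of Dll4. Of the classes drawn, which leave out cluster F3, Jag1 was highest in arterial endothelium, Flt3l and Tslp in adult medullary-type fibroblasts and Il15 in mature mTEC.

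The genes whose level across 62 combinations of class and library ran most like those of the main factors were sought among 15639 genes (Pearson r of log2 levels, as a description, since these units share libraries and depth). For Dll4 they were Gch1 (r = 0.844), the antisense model Gm14207 (0.818) and Fam181b (0.769). For Il7 they were Pard6g (0.909), Hpgd (0.906) and Six2 (0.874), and for Kitl Fez2 (0.848), Tspan12 (0.806) and Tinagl1 (0.790). Gm14207 overlaps the start of Dll4 on the other strand. Between the factors themselves, Dll4 and Kitl had r = 0.594, Dll4 and Il7 0.193 and Il7 and Kitl -0.261.

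The first comparison of ages asks whether each factor differed between 1 and 16 weeks within a class. In cTEC none of the 8 genes differed by 2-fold or more in the clustering used here. Adult T9, which also held the cTEC markers, was left out of this class. It had Dll4 at 24.2 and 38.8 CPM at 16 weeks, and a ratio with T9 included was not computed. Dll4 changed from 119 to 96.9 CPM, a log2 ratio of -0.30 (interval -0.55 to -0.05), but was past 2-fold, at -1.43, when each age was clustered on its own and, at -1.14, when shallow epithelial clusters were kept in. Il7 changed from 211 to 196, a log2 ratio of -0.11 (-0.28 to 0.07). Kitl changed from 118 to 139, a log2 ratio of 0.24 (0.03 to 0.45). The wells of the 2 ages did not overlap for Dll4 and Kitl and overlapped for Il7. The share of all genes whose wells did not overlap is not given, so this is not read as support. The intervals treat UMIs as independent and carry no animal-to-animal error. Kitl had a log2 ratio of 0.014 with 20 neighbours in the clustering and -0.018 when each age was clustered on its own, and Il7 one of 0.21 and 0.074, so the sign of Il7 turned in both and that of Kitl in the second.

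Jag1 in cTEC came nearest to the limit, with 10.4 CPM at 1 week and 20.5 at 16 weeks, a log2 ratio of 0.98 (0.38 to 1.53). Il15 had 22.0 and 35.3 (0.69, 0.24 to 1.10), Dll1 16.1 and 19.1, Flt3l 33.8 and 37.5 and Tslp 66 and 2 UMIs. As background, of 18171 genes with at least 10 UMIs in cTEC of the 2 ages together, 9.72% were 2-fold or more higher at 16 weeks and 21.4% lower. The 16-week pool held 50 cells against 1304, so genes with few UMIs passed easily, and of 9722 genes with at least 10 UMIs in each pool 7.17% were higher and 2.87% lower. Within cluster T5 alone, Dll4 had 138 and 97.2 CPM (log2 ratio -0.51, -0.77 to -0.26), Il7 244 and 197 (-0.30, -0.49 to -0.13) and Kitl 117 and 139 (0.25, 0.03 to 0.46). Jag1 in T5 was past 2-fold, with 6.7 and 20.7 (1.63, 0.98 to 2.24), where 10.9% of genes were higher and 11.6% lower. Markers of intertypical TEC, whose Jag1 level is higher, moved with the Jag1 values. The summed level of the 9 markers in cTEC was 485 and 484 CPM at 1 week and 1804 in the 16-week well with at least 20 cells, with none at 0, and Ccl21a among them had 228 and 710 in T5 (log2 ratio 1.64). Their part in the Jag1 values was not tested.

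Over all TEC the ages were further apart. Dll4 had 99.8 CPM in 2236 TEC at 1 week and 14.7 in 3932 TEC at 16 weeks, a log2 ratio of -2.76 (-2.89 to -2.64). Kitl had 110 and 42.6 (-1.37, -1.45 to -1.29) and Il7 191 and 124 (-0.62, -0.67 to -0.57). Jag1 went the other way, with 14.7 and 68.9 (2.23, 2.10 to 2.36). These 3 of 8 genes were past 2-fold, Dll4 and Kitl lower and Jag1 higher, where 32.1% of genes with at least 10 UMIs were higher and 7.38% lower.

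The make-up of the TEC that were sorted also differed between the ages, and its part in these totals was not tested. cTEC gave 87.3% of the Dll4 UMIs of TEC at 1 week and 23.2% at 16 weeks, when mature mTEC gave 41.5% and T9 14.7%. For Il7 the cTEC share was 80.6% and 5.56%, and at 16 weeks intertypical TEC gave 39.2% and T4 31.5%. For Kitl it was 78.1% and 11.53%, and T4 gave 42.7% and T9 18.3% at 16 weeks. cTEC were 1304 of the 2236 TEC at 1 week and 50 of the 3932 at 16 weeks. Per UMI within cTEC the log2 ratios were -0.30 for Dll4, -0.11 for Il7 and 0.24 for Kitl. The Dll4 ratio was past 2-fold in other clusterings, as given above. Dll4 and Kitl were also past 2-fold lower within intertypical and proliferating TEC, and Kitl within mature mTEC, as given below.

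**Figure D3:**
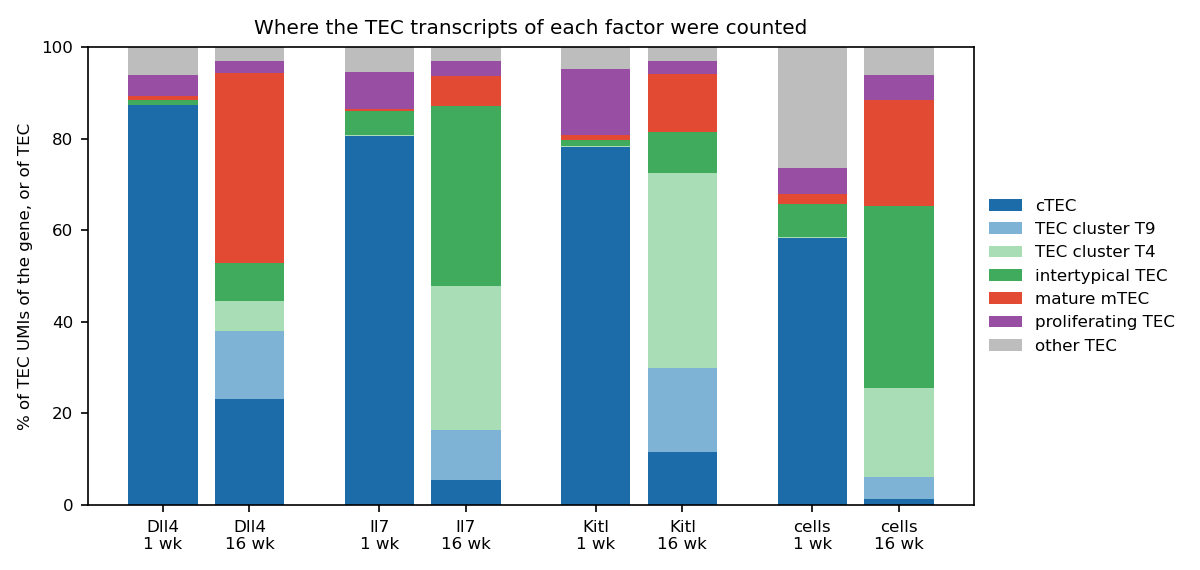
Share of the TEC UMIs of Dll4, Il7 and Kitl (y axis, percent) that was counted in each TEC class at 1 and 16 weeks (x axis), with the share of TEC in each class in the last 2 bars. cTEC gave 87.3% of the Dll4 UMIs at 1 week and 23.2% at 16 weeks.

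Across 8 classes with at least 20 cells at each age, 62 gene and class pairs had at least 10 UMIs, and 17 of these were past 2-fold, 6 higher and 11 lower at 16 weeks. With at least 10 UMIs asked of each pool, a choice made after the data were seen, 11 were. Under that choice the share of genes higher and lower was 5.85% and 8.73% in intertypical TEC, 3.5% and 7.55% in mature mTEC, 12.6% and 8.94% in proliferating TEC, 8.35% and 5.05% in capsular-type fibroblasts, 8.22% and 4.73% in mural cells, 3.71% and 5.58% in arterial and 4.69% and 3.97% in capillary cells. In intertypical TEC, Dll4 (24.9 and 4.25; log2 ratio -2.55, -3.16 to -1.95) and Kitl (31.1 and 13.1; -1.25, -1.69 to -0.79) were lower at 16 weeks, where 8.67% of genes were lower and 19.9% higher. Il7 in the same cells had 215 and 169 (-0.35, -0.50 to -0.19) and Jag1 62.8 and 111 (0.82, 0.55 to 1.10). The class rested on cluster T10 at 1 week and on T1 and T7 at 16 weeks. The 9 cTEC markers moved with the Dll4 and Kitl values, with a summed level of 9609 and 8929 CPM at 1 week and 2070 and 2205 at 16 weeks and none of the 9 at 0. Among them Psmb11 was 149 and 117 CPM at 1 week and 12.7 and 11.3 at 16 weeks, and their part in the result was not tested. The Kitl value turned to 0.20 when the 8 genes took part in the clustering.

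In mature mTEC, Kitl (49.6 and 22.1; -1.17, -1.61 to -0.70) was lower at 16 weeks, where 7.95% of genes were lower and 22.9% higher, and Dll1 had 3 and 62 UMIs, a ratio of 1.10 whose counting interval was -0.51 to 3.42 and which was -0.060 with 20 neighbours. Kitl in mature mTEC at 1 week was 50.6% and 33.6% of its T5 level beside 6.34% and 6.53% for Psmb11. The 9 cTEC markers moved with Kitl, with a summed level of 4026 and 3456 CPM in mature mTEC at 1 week and 2375 and 2112 at 16 weeks and none at 0. Psmb11 had 87.5 and 19.4 CPM (log2 ratio -2.17), and their part in the Kitl value was not tested. Dll4 in mature mTEC had 34 and 24.8 (-0.46, -0.97 to 0.10) and Il15 49.6 and 55.8 (0.17, -0.25 to 0.61). Proliferating TEC were mostly cluster T12 at 1 week and T8 at 16 weeks, and 4 members were past 2-fold. Dll4 (40.2 and 4.80; -3.07), Kitl (139 and 15.7; -3.15) and Il7 (133 and 52.4; -1.34) were lower and Il15 (19.0 and 42.5; 1.16) higher, where 13.7% of genes were lower and 17.8% higher. The 9 cTEC markers moved with these values, with a summed level of 6294 and 4139 CPM in proliferating TEC at 1 week and 828 and 1241 at 16 weeks and none of the 9 at 0, and their part in the result was not tested.

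**Figure D4:**
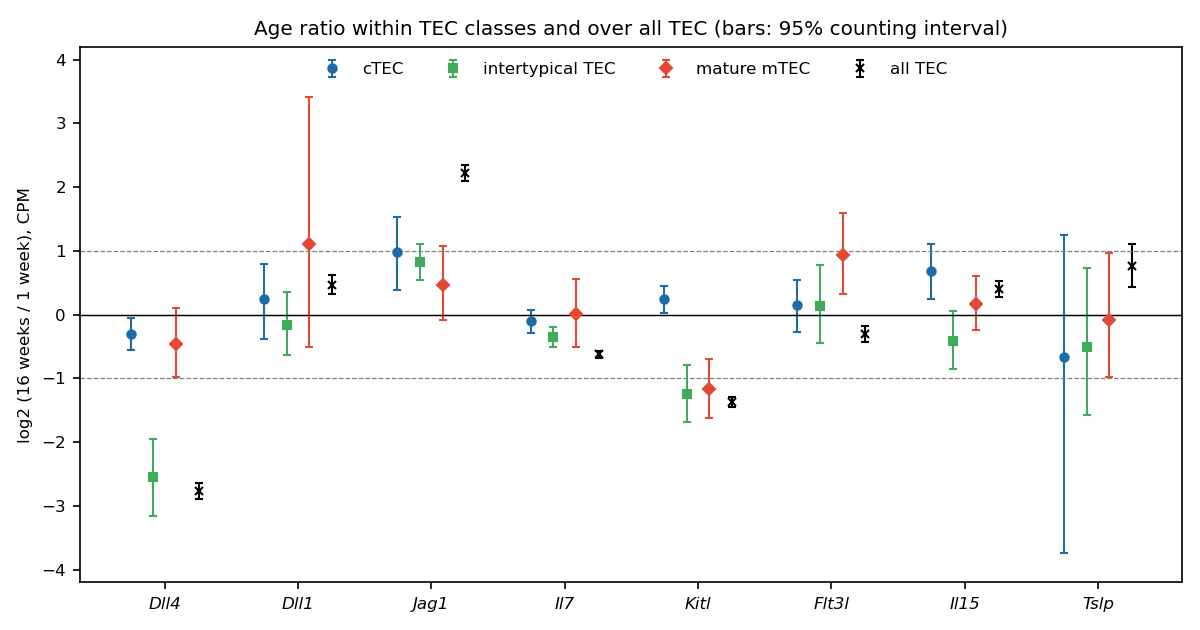
Log2 ratio of CPM at 16 weeks over 1 week (y axis) for each gene (x axis) in cTEC, intertypical TEC, mature mTEC and all TEC, where a pool had at least 10 UMIs. Bars are 95% counting intervals and dashed lines 2-fold. In the clustering used here Dll4 stood at -0.30 in cTEC and at -2.76 over all TEC, and Jag1 at 0.98 and 2.23. Dll4 in cTEC was past 2-fold lower in other clusterings.

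In the mesenchyme, the fibroblast cytokines were higher in adults. Over all mesenchymal cells Flt3l had 13.8 CPM at 1 week and 149 at 16 weeks (log2 ratio 3.43, 3.18 to 3.68) and Tslp 20.4 and 60.3 (1.56, 1.35 to 1.78). Dll1 was also higher, with 3.34 and 11.6 (1.80, 1.28 to 2.36), whereas Dll4 was lower with 17.4 and 4.99 (-1.80, -2.17 to -1.44). These were 3 members higher and 1 lower, where 11.4% of genes were higher and 13.3% lower. Medullary-type fibroblasts were all but 1 adult cells, so this total also compares different fibroblasts. Psmb11 moved with Dll4 here, with 101 and 9.92 CPM (log2 ratio -3.34), as did Prss16 (-3.32) and Ccl25 (-2.37), and the part of free cTEC RNA in the Dll4 value was not tested.

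In capsular-type fibroblasts (Dpp4, Pi16, Sema3c; cluster F10 at 1 week, F6 at 16 weeks), Flt3l had 9.12 and 8.53 in the wells at 1 week and 35.9 and 35.7 at 16 weeks (log2 ratio 2.02, 1.28 to 2.81). Tslp had 1 UMI at 1 week and 26 at 16 weeks (4.89, 2.28 to 10.25). Dll4 (18.1 and 3.03; -2.58) and Il7 (37.1 and 15.6; -1.25) were lower at 16 weeks, with 12.2% of genes higher and 9.84% lower. At 1 week Dll4 in these fibroblasts was 14.3% and 11.7% of the T5 level and Psmb11 6.88% and 13.2%, and the part of free RNA in the 2 lower values was not tested. In mural cells Dll4 had 57 and 4 UMIs (-2.32, -4.25 to -0.89) with Psmb11 at 9.60% and 8.41% of T5 at 1 week, and Flt3l 15 and 11 UMIs (1.06, -0.20 to 2.28), where 13.9% of genes were lower and 8.99% higher. Kitl (173 and 186; 0.10) and Jag1 (180.1 and 187; 0.06) in mural cells differed by less than the wells of an age did. The class was other clusters at the 2 ages, F8 (71 and 61 cells) and F11 (46 and 55) at 1 week and mostly F13 (22 and 56) at 16 weeks, with 7 and 9 cells in F8 and 0 and 1 in F11.

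Endothelial Kitl and capillary Dll4 were close at the 2 ages. Capillary Dll4 had 85.5 and 85.3 CPM (log2 ratio from -0.49 to 0.49) and capillary Kitl a ratio of 0.22 (-0.02 to 0.46), and Kitl over all endothelial cells one of 0.03 (-0.14 to 0.19). These values set different clusters side by side, as capillary cells were cluster E5 at 1 week (30 and 27 cells) and E2 (28 and 69) and E6 (9 and 14) at 16 weeks, with 1 cell in E5. Arterial Jag1 was lower at 16 weeks, with 497 and 234 CPM (-1.09, -1.54 to -0.65), where 11.8% of genes were lower and 9.64% higher. Arterial cells were few, and without 16-week replicate 1, the one library whose loss left 20 cells or more at each age, the Jag1 ratio was -0.84. Over all endothelial cells Flt3l (17 and 71 UMIs; 1.69) and Tslp (11 and 30; 1.07) were higher and Jag1 (-1.20) and Il7 (42 and 25; -1.12) lower, where 10.5% of genes were higher and 9.55% lower, and the Tslp ratio turned to -0.62 without 16-week replicate 2. Arterial Dll4 had 195 and 111 (-0.80, -1.49 to -0.14). In capillary cells Flt3l had 7 and 23 UMIs (1.48, 0.21 to 2.94) and Il7 17 and 8 (-1.33, -2.75 to -0.04), where 11.5% of genes were higher and 7.55% lower. Psmb11 moved with Il7, from 120.3 to 5.68 CPM over all endothelial cells (log2 ratio -4.40) and from 122 and 64.0 in capillary cells at 1 week to 0 and 6.27 at 16 weeks, and the part of free cTEC RNA in the Il7 values was not tested.

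Other genes of the same pathways in cTEC were taken from set lists and are counted here among genes with at least 10 UMIs in each pool (the choice made after the data were seen), where 7.17% of all genes were 2-fold or more higher and 2.87% lower at 16 weeks. The cortical niche list held 16 genes, namely chemokines, growth factors, the adhesion molecule Vcam1 and 5 genes typical of cTEC (Psmb11, Prss16, Foxn1, Cd83 and Ly75). Of these 16, 6 (Psmb11, Prss16, Ly75, Foxn1, Ccl25 and Cxcl12) are among the 9 markers by which cTEC were named, so the list is not independent of the class. Of the 16 genes 12 had enough UMIs, and 4 of these were higher and 0 lower, with a median log2 ratio of 0.77 beside 0.041 for all genes. Since 946 of the 1-week cTEC were in T3 and 47 of the 50 adult ones in T5, T5 alone was also compared, where 3 of 12 were higher and 0 lower (8.31% and 1.88% of all genes) and the median was 0.38 beside 0.090 for all genes.

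The 3 genes past 2-fold in both were the growth factor Igf1 (141 and 21 UMIs in cTEC, log2 ratio 1.64) and the chemokines Ccl19 (27.9 and 127 CPM, 2.18) and Ccl21a (193 and 715 CPM, 1.89), which guide T cells in the medulla. The chemokine values were not particular to cTEC. Over all endothelial cells Ccl19 had 23.9 and 131 CPM and Ccl21a 180.4 and 656. Ccl21a had 170.1 and 567 in mural cells and 112 and 656 in capsular-type fibroblasts, where Ccl19 had 29.6 and 71.1. Ccl19 went the other way in mural cells (218 and 119) and intertypical TEC (577 and 242), and had 830 and 790 in mature mTEC. Whether the levels in cTEC were expression by cTEC was not tested. Igf1 levels were higher elsewhere in the epithelium, with 8.31 and 54.2 CPM in intertypical TEC and 205 and 308 in mature mTEC beside 4.78 and 14.8 in cTEC. The endocytic receptor Ly75 was past 2-fold in cTEC (364 and 769 CPM, 1.08) but not in T5 (426 and 773, 0.86), and Ccl25 had a log2 ratio of 0.63 in cTEC and -0.039 in T5. Igf2 and Fgf10 had 26 and 17 UMIs at 1 week and 0 at 16 weeks, and as a count of 0 allows up to 3 UMIs in the smaller pool, neither can be called lower.

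Of 7 Notch target genes 4 had enough UMIs, and Heyl (149 and 36 UMIs, log2 ratio 2.33) and Hey2 (100 and 11 UMIs, 1.20) were higher, while Dtx1 had 169 and 3 UMIs. Among the other Notch pathway genes Maml3 was lower in cTEC (1762 and 34 UMIs, -1.31) but not past 2-fold in T5 (-0.77). Of 25 other cytokines 3 had enough UMIs, of which Il34 (253 and 36 UMIs, 1.57) was higher and 0 were lower. Il34 was also past 2-fold over all endothelial cells (4.29 and 13.7 CPM, 1.68) and in intertypical TEC (5.71 and 15.3, 1.42), and was at 161 and 306 over all mesenchymal cells. Of the 7 receptors of the factors, Kit had 86 UMIs at 1 week and 0 at 16 weeks.

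The second comparison asks which compartment makes each factor, with compartments set by surface tags and not by RNA, so that the RNA is independent of the grouping. Cells were gated on the tags for EpCAM1, an epithelial adhesion molecule, and CD31, the endothelial molecule PECAM-1. The EpCAM1+CD31- gate was 90.2% and 89.3% TEC by RNA class at 1 and 16 weeks and the EpCAM1-CD31+ gate 78.2% and 80.7% endothelium. The EpCAM1-CD31- gate was 74.0% and 64.0% mesenchyme, and held 11% TEC at 1 week and 30.8% at 16 weeks. The tags are oligonucleotides read by sequencing, and the barcodes behind the gates, all in lower case as no part is singled out, were as follows, with SAV_PE reporting the lectin UEA1, which binds mTEC.
EpCAM1 tag: acccgcgttagtatg
CD31 tag: gctgtagtatcatgt
SAV_PE tag: aacctttgccactgc
MHCII tag: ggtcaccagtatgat
CD80 tag: gacccggtgtcattt
The CD31 and CD80 tags were sparse, with a median of 1 and 2 counts per cell against 40 for EpCAM1, 131 for SAV_PE and 517 for MHCII.

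Il7 was higher and Kitl lower in epithelium than in endothelium. In EpCAM1+CD31- cells Il7 was 182 and 175 CPM at 1 week and 110 and 113 at 16 weeks, and in EpCAM1-CD31+ cells 42.2 and 15.9, then 15.3 and 15.3. The log2 difference was 2.71 (SE 0.53, edgeR quasi-likelihood test over 19891 genes with the age pool as a block, adjusted p = 0.0172). Kitl was 108 and 110.0, then 35.6 and 41.4 in epithelium and 308 and 330.5, then 292 and 271 in endothelium, a log2 difference of -2.13 (SE 0.39, edgeR, adjusted p = 0.0138). All 4 wells had both directions and the gates did not overlap. These were 2 of 8 members, where 14.5% of genes were called, 6.92% higher and 7.59% lower in epithelium. Dll4 (log2 -1.02, SE 0.52, edgeR, adjusted p = 0.237), Dll1, Jag1, Flt3l, Il15 and Tslp missed the 5% threshold. In edgeR without the age pool as a block, and likewise with tags scaled to the cell total, 0 of 8 members were called in any of the 3 compartment contrasts. Before adjustment 2, 2 and 3 members had p under 0.05 without the block and 2, 2 and 1 with total-scaled tags, in the order epithelium against endothelium, epithelium against EpCAM1-CD31- and endothelium against EpCAM1-CD31- cells.

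Against the EpCAM1-CD31- cells, endothelium was richer in Dll4 and Kitl and poorer in Tslp. Dll4 was 95 and 90.2 CPM at 1 week and 59.8 and 72.8 at 16 weeks in EpCAM1-CD31+ cells and 19.3 and 14.9, then 7.54 and 7.06 in EpCAM1-CD31- cells, a log2 difference of 2.86 (SE 0.53, edgeR, adjusted p = 0.0228). Kitl had a log2 difference of 1.81 (SE 0.38, edgeR, adjusted p = 0.0349) and Tslp one of -1.64 (SE 0.30, edgeR, adjusted p = 0.0212), with Tslp in EpCAM1-CD31- cells at 17.3 and 21.5, then 44.6 and 44.4. These were 3 of 8 members, where 7.57% of genes were called, 3.68% higher and 3.9% lower in endothelium. Without 16-week replicate 2, Dll4 (log2 2.59) and Kitl (1.70) were no longer called, and without 1-week replicate 2 or 16-week replicate 1 Tslp (-1.34 in both) was not. Dll1, with a log2 difference of 2.06 (SE 0.50, edgeR, adjusted p = 0.0552), missed the threshold.

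Between epithelium and EpCAM1-CD31- cells Tslp alone among the 8 was called in the main edgeR fit. Tslp was 3.82 and 3.28 CPM at 1 week and 7.98 and 6.63 at 16 weeks in EpCAM1+CD31- cells, a log2 difference of -2.61 (SE 0.27, edgeR, adjusted p = 0.00279), as 1 of 8 members where 13.0% of genes were called, 5.35% higher and 7.61% lower in epithelium. Dll4 (1.84, SE 0.51, edgeR, adjusted p = 0.0587) and Il7 (1.77, SE 0.49, edgeR, adjusted p = 0.0588) came close, and were called in the DESeq2 test. The TEC in the EpCAM1-CD31- gate moved with this comparison, as Il7 was 27.3 and 19.3 there at 1 week and 59.99 and 55.0 at 16 weeks. Their part in it was not tested.

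**Figure D5:**
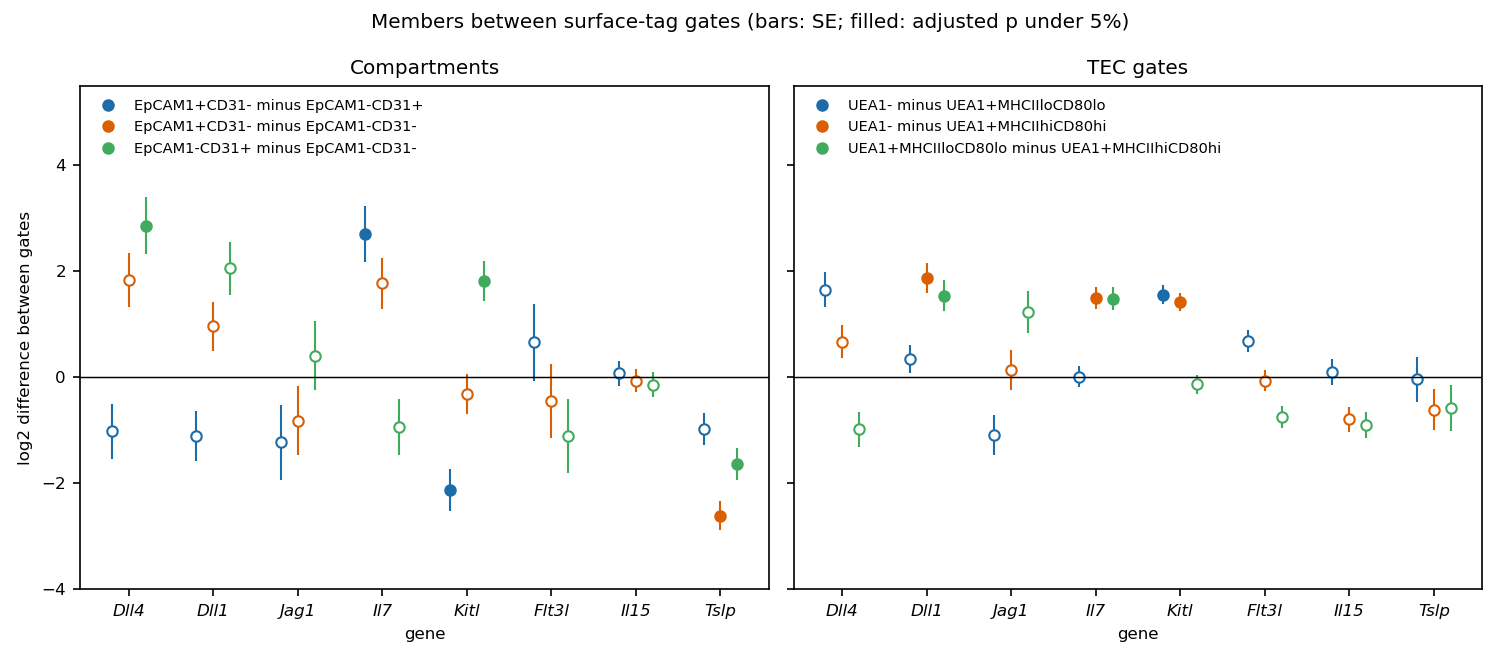
Log2 difference between surface-tag gates (y axis) for each gene (x axis), with compartments on the left and TEC gates on the right. Bars are standard errors, and filled points passed an adjusted p of 5% in the edgeR test on sums per age pool. Il7 stood at 2.71 and Kitl at -2.13 between EpCAM1+CD31- and EpCAM1-CD31+ cells.

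The lists placed the members among their pathways. Of 38 Notch pathway genes, 37 tested, 1 was higher and 13 lower in EpCAM1+CD31- than in EpCAM1-CD31+ cells, where 6.92% of all genes were higher and 7.59% lower, with a median log2 difference of -0.27 beside 0.16 for all genes. The endothelial receptor Notch4 (-5.19, edgeR, adjusted p = 0.000153), the glycosyltransferases Mfng (-3.59) and Lfng (-2.94), Neurl3 (-3.14) and the target Nrarp (-2.83) were lower, and the receptor Notch2 (1.32) was higher. Of 28 tested genes of the cytokine list, Il13 (2.68) and Il15ra (1.24), the chain that presents IL-15, were higher and Il6 (-3.56), Il2rg (-2.63), Tgfb1 (-2.25) and Crlf2 (-1.47), a chain of the TSLP receptor, lower. Of the 16 cortical niche genes, 9 were higher, led by Ccl25 (3.31), Prss16 (3.08), Ly75 (2.98), Wnt4 (2.95) and Foxn1 (2.75), and Bmp4 (-2.46) was lower. Several of these, among them Ccl25, Prss16, Ly75 and Foxn1, are also markers by which cTEC were named. Against EpCAM1-CD31- cells, 7 of the 16 cortical niche genes were higher in epithelium and 3 lower (5.35% and 7.61% of all genes), with a median log2 difference of 1.30. The higher ones were led by Ccl25 (2.36), Foxn1 (2.28), Cd83 (2.20), Ly75 (2.13) and Psmb11 (1.98). EpCAM1+CD31- cells were lower in the fibroblast growth factors Fgf10 (-3.59) and Fgf7 (-2.55), in Bmp4 (-3.06), in Notch3 (-2.91), a receptor of mural cells, and in Il6 (-3.88), Il34 (-3.39), Il33 (-2.86), Tnfsf13b (-2.31) and Tgfb2 (-2.06), with 1 Notch pathway gene higher and 4 lower and 3 cytokine list genes higher and 5 lower.

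The third comparison asks how the factors differ between the TEC gates that the study uses for cTEC (UEA1-), mTEClo (UEA1+MHCIIloCD80lo) and mTEChi (UEA1+MHCIIhiCD80hi). By RNA class the UEA1- gate was 66.9% cTEC at 1 week but 4.0% cTEC, 45.1% T4 and 13.1% T9 at 16 weeks. The UEA1+MHCIIloCD80lo gate was 61.3% and 83.0% intertypical TEC, and the UEA1+MHCIIhiCD80hi gate 16.4% and 59.7% mature mTEC. At 1 week 60.4% of the hi gate was cluster T6, shallow cells led by Pth, Sparcl1 and Ttn that held 7 of 10 mature mTEC markers and stay unnamed.

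Kitl followed the UEA1- gate. It was 117 and 122 CPM at 1 week and 78.9 and 79.4 at 16 weeks in UEA1- cells, 62.2 and 28.9, then 19.4 and 25.1 in UEA1+MHCIIloCD80lo cells, and 64.8 and 46.0, then 19.4 and 25.5 in UEA1+MHCIIhiCD80hi cells. The UEA1- cells were above both other gates in each of the 4 wells. The log2 difference was 1.56 against the lo gate (SE 0.18, edgeR over 18577 genes, adjusted p = 0.0497), as 1 of 8 members where 0.345% of genes were called (0.161% higher, 0.183% lower), and this call was lost without 1-week replicate 2 (log2 1.47) or 16-week replicate 2 (1.65), with DESeq2 size factors (1.55) and with doublets kept (1.48). Against the hi gate it was 1.42 (SE 0.18, edgeR, adjusted p = 0.0118).

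Il7 set the hi gate apart from the others. It was 195 and 186 CPM, then 164 and 162 in UEA1- cells, 190.4 and 176, then 160.1 and 169 in UEA1+MHCIIloCD80lo cells, and 84.2 and 90.9, then 42.8 and 45.5 in UEA1+MHCIIhiCD80hi cells. Between UEA1- and lo cells the log2 difference was 0.01 (SE 0.20, edgeR, adjusted p = 0.986). Against the hi gate it was 1.50 for UEA1- cells (SE 0.21, edgeR, adjusted p = 0.0126) and 1.48 for lo cells (SE 0.21, edgeR, adjusted p = 0.0216).

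Dll1 was also lowest in the hi gate, with 14.2 and 16.7, then 28.6 and 36.8 CPM in UEA1- cells, 16.3 and 19.3, then 22.7 and 19.0 in lo cells and 5.90 and 4.43, then 6.61 and 8.13 in hi cells. The log2 difference to the hi gate was 1.88 for UEA1- cells (SE 0.28, edgeR, adjusted p = 0.0134) and 1.54 for lo cells (SE 0.29, edgeR, adjusted p = 0.0346). So 3 of 8 members were called between the UEA1- and hi gates, where 23.7% of genes were (8.46% higher, 15.2% lower), and 2 of 8 between the lo and hi gates, where 11.1% were (3.99% higher, 7.08% lower). In edgeR without the age pool as a block 0 of 8 were called between any 2 TEC gates (2 between UEA1- and lo, 3 between UEA1- and hi and 4 between lo and hi at p under 0.05 before adjustment). With tags scaled to the cell total, Kitl alone was called for UEA1- cells, against the lo gate (2.51) and the hi gate (1.33), and 0 members between lo and hi (1 before adjustment).

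Dll4 was not called between TEC gates. It was 100.3 and 112, then 16.3 and 25 CPM in UEA1- cells, 38.3 and 45.4, then 5.48 and 5.68 in lo cells and 57.3 and 43.2, then 10.9 and 20.8 in hi cells. UEA1- cells were highest in each well, with log2 differences of 1.66 to the lo gate (SE 0.33, edgeR, adjusted p = 0.103) and 0.67 to the hi gate (SE 0.31, edgeR, adjusted p = 0.167). Il15 was lower in UEA1- than in hi cells by log2 -0.80 (SE 0.23, edgeR, adjusted p = 0.0578), which missed the threshold.

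Other genes of the lists were called mainly against the hi gate, as were genes at large, with 0.345% called between UEA1- and lo cells and 23.7% and 11.1% in the contrasts with the hi gate. In UEA1- cells 7 of the 16 cortical niche genes were higher than in hi cells, led by the cTEC genes Prss16 (2.75) and Psmb11 (2.68), the chemokine Cxcl12 (2.44) and the cTEC genes Ly75 (2.00) and Cd83 (1.90), with the growth factor Igf1 (-1.67) lower. Of 28 cytokine list genes 10 were lower, among them Il4 (-4.09), Il13 (-3.37) and the receptors Il7r (-3.36), Kit (-3.36) and Il2rb (-3.12). Of 37 Notch pathway genes 5 were higher, Hey1 (2.05), Jag2 (1.82), Dlk2 (1.74), Maml2 (1.67) and Hes1 (0.78), and 8 lower, led by Dll3 (-3.68), Mfng (-2.42) and Neurl1a (-2.29). Against the lo gate the calls in UEA1- cells were Ccl25 (2.80) and Ly75 (2.06). Between the lo and hi gates 1 cortical niche gene was higher in lo cells (Ccl21a, 3.72) and 1 lower (Igf1, -2.55). In that contrast 6 Notch pathway genes were higher, among them Maml2 (1.87) and Jag2 (1.70), and 3 lower, Neurl3 (-2.73), Mfng (-2.30) and Rbpj (-1.01), and 1 cytokine list gene was higher (Il15ra, 1.00) and 4 lower, among them Ebi3 (-3.30) and Il2rg (-3.29).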

How the data were processed

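The files hold raw UMI counts per gene and cell and raw tag counts per cell, deposited by the authors and made with STARsolo 2.7.9a on mm10, per the labels. The labels give version 2 and the study's methods version 3 of the kit. Here, 253 of 9953 cells were removed as predicted doublets, the highest-scoring cells in scrublet up to a set rate that rose with the number of cells, since its automatic limit marked 12. Cells were clustered in scanpy 1.11.5 with igraph 0.11.9 (Louvain, 2000 variable genes, 30 components, 10 neighbours), within each compartment, without the 8 genes, and 338 cells of a shallow epithelial cluster (median under 3000 UMIs) were set aside. Names needed 3 markers, but this alone did not give a name. T9 and T6 held more and stayed unnamed, and T9 also held intertypical markers (summed level 11582 and 8933 CPM). Gates were set on centred log ratios of the tag counts, with a limit from a 2-component mixture. Counts were summed per age pool and gate and tested in edgeR 4.0.16 (quasi-likelihood, TMM, filterByExpr, pool as a block, Benjamini-Hochberg over all genes, 5%), with DESeq2 1.42.0 as an alternative. On simulated data 70% (compartments, 18994 genes) and 87.5% (TEC gates, 17721 genes) of 4-fold changes were recovered, and 5.10% and 11.2% of 2-fold ones. Each age was 1 pool, so p-values measure only how gate differences varied between the 2 pools, not between animals. Age ratios carry exact binomial intervals for counting error alone and no test.

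The 8 genes, the lists and the tests were chosen with earlier results of these data known, and the rules for naming clusters, the doublet rate and the depth limit were set with the data in view. Genes beside the members were named where called between gates or past 2-fold with age, at most 5 per list, contrast and direction, and for likeness the 3 with the highest r on the log2 scale of CPM with 10 added, among genes with at least 200 UMIs in units of at least 20 cells. The alternatives were another test, size factors, no filter, sums per library, no block, tags scaled to the cell total, doublets kept, 20 neighbours, the members clustered on, shallow clusters kept, each age clustered alone, TMM scaling, each library left out and, chosen after seeing the data, 10 UMIs in each pool.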

Additional observations from a re-analysis of the deposited data

Results flagged for a closer look

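Every member was looked at in every contrast between compartments and between TEC gates. For 9 of these gene and gate pairs both wells of 1 age lay on one side of zero. Both wells of the other age lay on the opposite side. These differences between the ages were not tested, as each age was 1 pool. The share of all genes that did the same is not given, so the 9 pairs are not read as support for a change with age. Some of the values were small, as for Il15. Values are mean log2 ratios of the 2 wells, at 1 week and then at 16 weeks. Between EpCAM1+CD31- and EpCAM1-CD31+ cells Jag1 stood at -3.00 and 0.42 and Flt3l at 1.47 and -0.55. Between EpCAM1+CD31- and EpCAM1-CD31- cells Flt3l stood at 1.19 and -2.00, Kitl at 0.44 and -1.11 and Il15 at 0.13 and -0.093. Jag1 between EpCAM1-CD31+ and EpCAM1-CD31- cells stood at 0.98 and -0.45. Among the TEC gates, Dll1 stood at -0.20 and 0.64 and Tslp at -0.80 and 0.68 between UEA1- and UEA1+MHCIIloCD80lo cells, and Jag1 at -0.67 and 1.05 between UEA1- and UEA1+MHCIIhiCD80hi cells. The make-up of the gates moved with these values, as cTEC made up 66.9% of the UEA1- gate at 1 week and 4.0% at 16 weeks, and TEC made up 11% and 30.8% of the EpCAM1-CD31- gate.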

How the results depend on the processing

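Of the 12 member calls between gates, DESeq2, no filter and the library as replicate block kept 12, size factors and kept doublets 11, and tags scaled to the cell total 2. The library block treats wells of 1 pool as replicates, so the calls that it kept are not further support. In the order EpCAM1+CD31- minus EpCAM1-CD31+, EpCAM1+CD31- minus EpCAM1-CD31-, EpCAM1-CD31+ minus EpCAM1-CD31-, UEA1- minus lo, UEA1- minus hi and lo minus hi, 2, 1, 3, 1, 3 and 2 members were called. In edgeR 0 were in all 6 with no replicate block (the pool left out). With the library as replicate block, 3 were called in EpCAM1+CD31- minus EpCAM1-CD31- (7275 of 17954 genes) and in UEA1- minus lo (2826 of 16881). In UEA1- minus hi and lo minus hi 5 were called each, where 8300 and 6125 of 16881 genes were. Replicate numbers are wells and pair nothing across ages. Without a filter 5, 5 and 6 were called between compartments, where 4560, 4552 and 2941 of 35892 genes were. In UEA1- minus lo and lo minus hi 3 and 4 were called, where 1388 and 4137 of 34531 genes were. With tags scaled to the cell total, whose CD31 and CD80 limits lay near 0, 0 were called between compartments and in lo minus hi, and 1 in UEA1- minus hi. DESeq2 called 3 in EpCAM1+CD31- minus EpCAM1-CD31- (3134 of 19891 genes) and 2 in UEA1- minus lo (781 of 18577), where size factors or kept doublets left 0. With a library left out the counts ranged from 2 to 2, 1 to 3, 1 to 4, 0 to 1, 3 to 4 and 2 to 4.

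Over all genes, counts of calls moved by more than 1.5 times as follows, in the same order of contrasts. The library block gave 6678, 7275, 4079, 2826, 8300 and 6125, no filter 4560, 4552, 2941, 1388 and, in lo minus hi, 4137, and no block 791, 202, 261 and, for each pair of TEC gates, 0 (1229, 4195 and 3402 at p under 0.05 before adjustment). Total-scaled tags gave 35, 0 (1494 before adjustment) and 6 between compartments and 847 and 244 against hi cells. UEA1- minus lo had 781 genes in DESeq2, and in edgeR 210 without 1-week replicate 1, 199 without 16-week replicate 1, and 0 with size factors, with doublets kept and without 16-week replicate 2 (3203, 3054 and 2357 before adjustment). Without 16-week replicate 2, 1745 and 514 genes were called against hi cells.

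The highest class of a gene stood for 11 of 16 gene and age pairs with 20 neighbours and with TMM factors, 14 with the members clustered on, with doublets kept and with shallow clusters kept, 16 with each age alone and 11 to 15 with a library left out. The number of age ratios past 2-fold was 17 as reported, 8 with 20 neighbours, 11 with 10 UMIs asked of each pool (chosen after seeing the data) and 13 to 19 with a library left out. In cTEC, Dll4 was -1.43 with each age clustered alone and -1.14 with shallow clusters kept, Il7 0.21 with 20 neighbours, 0.074 with each age alone, -0.57 with TMM factors and -0.34 to -0.084 with a library left out, and Kitl 0.014 with 20 neighbours and -0.018 with each age alone. The sign turned for Kitl in intertypical TEC with the members clustered on (0.20), for Dll1 in mature mTEC with 20 neighbours (-0.060) and for endothelial Tslp without 16-week replicate 2 (-0.62, and up to 1.91 with another library left out). The causes were not tested. The 50 adult cTEC, of which replicate 1 held 14, limited the depth.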
